A study of Homo sapiens with 6 samples.

Results

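The kinesin and dynein motor genes were the 71 protein-coding genes whose symbols named a kinesin (KIF or KIFC), a kinesin light chain (KLC1 to KLC4), a chain of cytoplasmic dynein 1 or dynein 2 (DYNC1 and DYNC2), a dynein light chain (DYNL) or one of the dynactin subunits DCTN1 to DCTN6. They were 71 of the 34834 genes with a quantified transcript. Of these, 53 passed the filter on low counts and were tested, among 11814 genes tested in all. By role, there were 14 mitotic kinesins, 15 transport kinesins, 4 kinesin light chains, 13 other kinesins, 5 chains of cytoplasmic dynein 1, 4 chains of dynein 2, 10 dynein light chains and 6 dynactin subunits. The transport motors were the 40 genes of the transport kinesins, kinesin light chains, cytoplasmic dynein 1, dynein light chains and dynactin, and they were compared with the 14 mitotic kinesins.

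Motor proteins of these families use ATP to walk along microtubules. Most kinesins walk towards the growing end of the filament and carry vesicles and organelles outward, while cytoplasmic dynein, with dynactin as its activator, carries cargo back towards the cell centre. In dividing cells a separate group of kinesins slides, bundles and shortens the microtubules of the spindle and of the bridge between daughter cells, and these genes are known to be expressed mainly from late S phase to mitosis.

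SKOV3 is an established human ovarian cancer cell line. RNA was sequenced from 3 samples of SKOV3 cells given a pool of siRNAs against the long non-coding RNA DNM3OS and from 3 samples given a pool of non-targeting (NT) siRNAs, each at 50 nM and 48 h after transfection. The study asked what DNM3OS knockdown changes in the transcriptome, and the motor genes are followed here through that single comparison. No label says that the samples of a group came from separate cultures, so p-values measure the spread between these samples, which may be technical.

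DNM3OS itself was not analysed here, since 0 of its 6 annotated transcripts matched a quantified identifier. The estimated counts summed to between 1610937 and 1995888 per library, and 3 counts corresponded to between 1.61 and 1.97 CPM (counts scaled to library size). The motor genes together held between 2655 and 3614 counts per library, or 0.174% to 0.198%. Of the epithelial markers, KRT8 and ERBB2 were at 2613 to 5740 and 208 to 429 TPM (transcript abundance scaled for length and depth), and KRT19, KRT18, EPCAM, KRT7 and PAX8 were lower, between 8.04 TPM (KRT7) and 142 TPM (KRT19). The ovarian markers WT1 and MUC16 were at or near 0, with highest values of 1.19 and 0.0430 TPM, while PTPRC, which marks white blood cells, was at 61.6 to 92.5 TPM and CD14 at 0 in all 6 libraries. The fibroblast markers DCN and COL1A1 were at 27.5 to 47.7 and 15.6 to 33.4 TPM, and PDGFRB had 1 count in 1 library. A stranded kit was used and the strand setting of the quantification is not given in the sources used here. The 86 ribosomal protein genes held 0.232% to 0.543% of counts. Exons of another gene on the opposite strand overlapped 32 of the 71 motor genes (45.1%), against 8214 of the 34834 genes (23.6%). The motor genes are all protein-coding, while 19439 of the 34834 genes are, so these shares cover unlike classes of genes. The part of opposite-strand reads in the values below was not tested.

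In each group, 1 library stood apart from the others. DNM3OS knockdown replicate 1 differed from replicates 2 and 3 with a chi-square statistic per degree of freedom of 13.2 and 13.7, while replicates 2 and 3 differed from each other by 2.36. NT replicate 2 differed from replicates 1 and 3 by 5.10 and 4.21, and replicates 1 and 3 by 2.25. The ribosomal protein share was lowest in knockdown replicate 1 (0.232%), followed by NT replicate 2 (0.320%), knockdown replicates 2 and 3 (0.384% and 0.397%) and NT replicates 3 and 1 (0.524% and 0.543%). The main values are given with all 6 libraries where each gene is described, and without these 2 libraries after the comparison of the lists.

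Levels of the motor genes were compared per length, as TPM summed over the transcripts of a gene. KIFC3, a minus-end-directed kinesin found at cell junctions, had the highest sum, at 501 ± 159 TPM in the knockdown and 521 ± 152 TPM in the controls (SD, n = 3 each). However, 96.1% of that value came from 1 transcript of 297 bases. Below it were the dynein light chain DYNLL1 (82.6 ± 32.4 and 99.1 ± 11.5 TPM), the kinesin light chains KLC1 (89.7 ± 27.2 and 85.7 ± 13.4 TPM) and KLC4 (89.6 ± 14.3 and 68.2 ± 2.16 TPM), and the dynactin subunit DCTN2 (70.5 ± 19.7 and 56.7 ± 10.8 TPM). Over all 6 libraries the means of these last 4 were 90.8, 87.7, 78.9 and 63.6 TPM, and each differed from the next by less than the larger of the SDs of the 2 genes. A short transcript led in many members, since in 23 of the 53 tested members the transcript with most TPM was under 1000 bases long.

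The mitotic kinesins had a lower median than the pooled transport motors on this scale, but a higher one than the transport kinesins alone. Their median level was 6.47 TPM over 14 genes, against 13.1 TPM over the 40 transport motors and 10.8 TPM over all 71. Within the transport motors the median was 3.36 TPM for the 15 transport kinesins. It was 55.8 TPM for the kinesin light chains, 32.5 TPM for dynactin, 20.1 TPM for cytoplasmic dynein 1 and 13.1 TPM for the dynein light chains. KIF23 (30.9 ± 3.22 TPM in the knockdown and 37.9 ± 3.82 TPM in the controls), which bundles microtubules in the midzone between separating chromosomes, had the highest level among the mitotic kinesins. Kinesins known mainly from neurons were at or near the floor. KIF5A was at 0 counts in all libraries, as were KIF5C, KIF2B and DYNLT5 after rounding, and KIF1A had 6 counts over all 6 libraries.

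**Figure D1:**
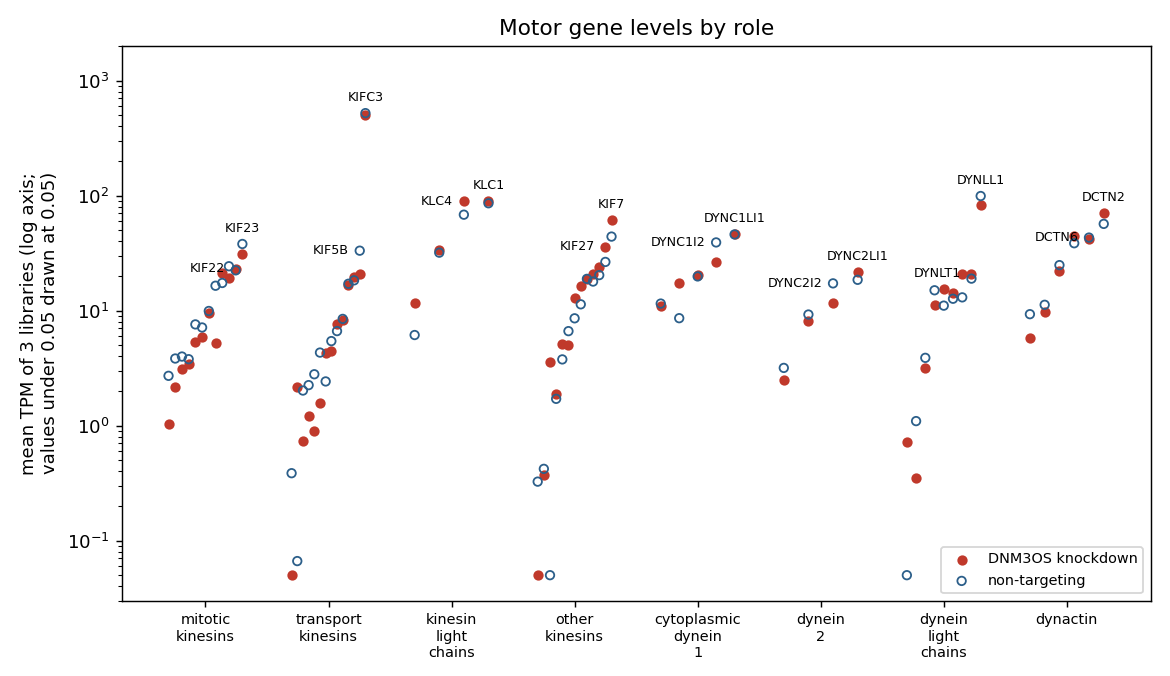
Mean TPM (log axis) of each motor gene by role in 3 DNM3OS knockdown libraries (filled) and 3 NT libraries (open), with the 2 highest members of each role named. The 67 members with a mean above 0.1 TPM are drawn and 4 are not, KIFC3 stands above the rest at 511 TPM over all 6 libraries, and the open and filled points of a gene mostly lie close together.

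No motor gene was called changed. With calls limited to changes of 2-fold or more whose adjusted p was below 0.05 (edgeR's exact test, Benjamini-Hochberg adjustment over all 11814 genes), 0 of 53 members were lower and 0 were higher, against 0.00846% of all genes lower (1 gene) and 0.0% higher. Each member had an adjusted p of 1, and edgeR's quasi-likelihood test and DESeq2 also called 0 members. At an unadjusted p below 0.05, 2 members were lower, DYNC1H1 and DCTN1, and 0 were higher, against 1.91% and 1.01% of all genes. By CPM the 3 knockdown values lay below the 3 control values in 0 members and above them in 1 member, KIF6, against 3.56% and 4.42% of all genes. Log2 fold changes were negative in 31 of 53 members, against 49.4% of all genes, and their median was -0.062 against 0.0042 for all genes.

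The 18 members under the filter held few reads. They were the mitotic kinesins KIF15, KIF2B and KIF4B, the transport kinesins KIF16B, KIF17, KIF1A, KIF3C, KIF5A, KIF5C and KIFC2, the other kinesins KIF12, KIF25 and KIF26A, the heavy chain DYNC2H1 of dynein 2, and the light chains DYNLRB2, DYNLT2, DYNLT4 and DYNLT5. The highest total among them was 56 counts over 6 libraries, in DYNLT4. KIF16B, which moves early endosomes, had 1, 1 and 2 counts in the knockdown and 8, 5 and 5 in the controls. These values did not overlap, but at this depth they are at or near the floor of 3 counts in the knockdown. KIF15, a spindle motor that works beside KIF11, had 1, 4 and 2 counts against 9, 3 and 6. Genes named in the text that were not among the 2 highest of their role, lowest in p or non-overlapping were chosen after their values were seen.

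**Figure D2:**
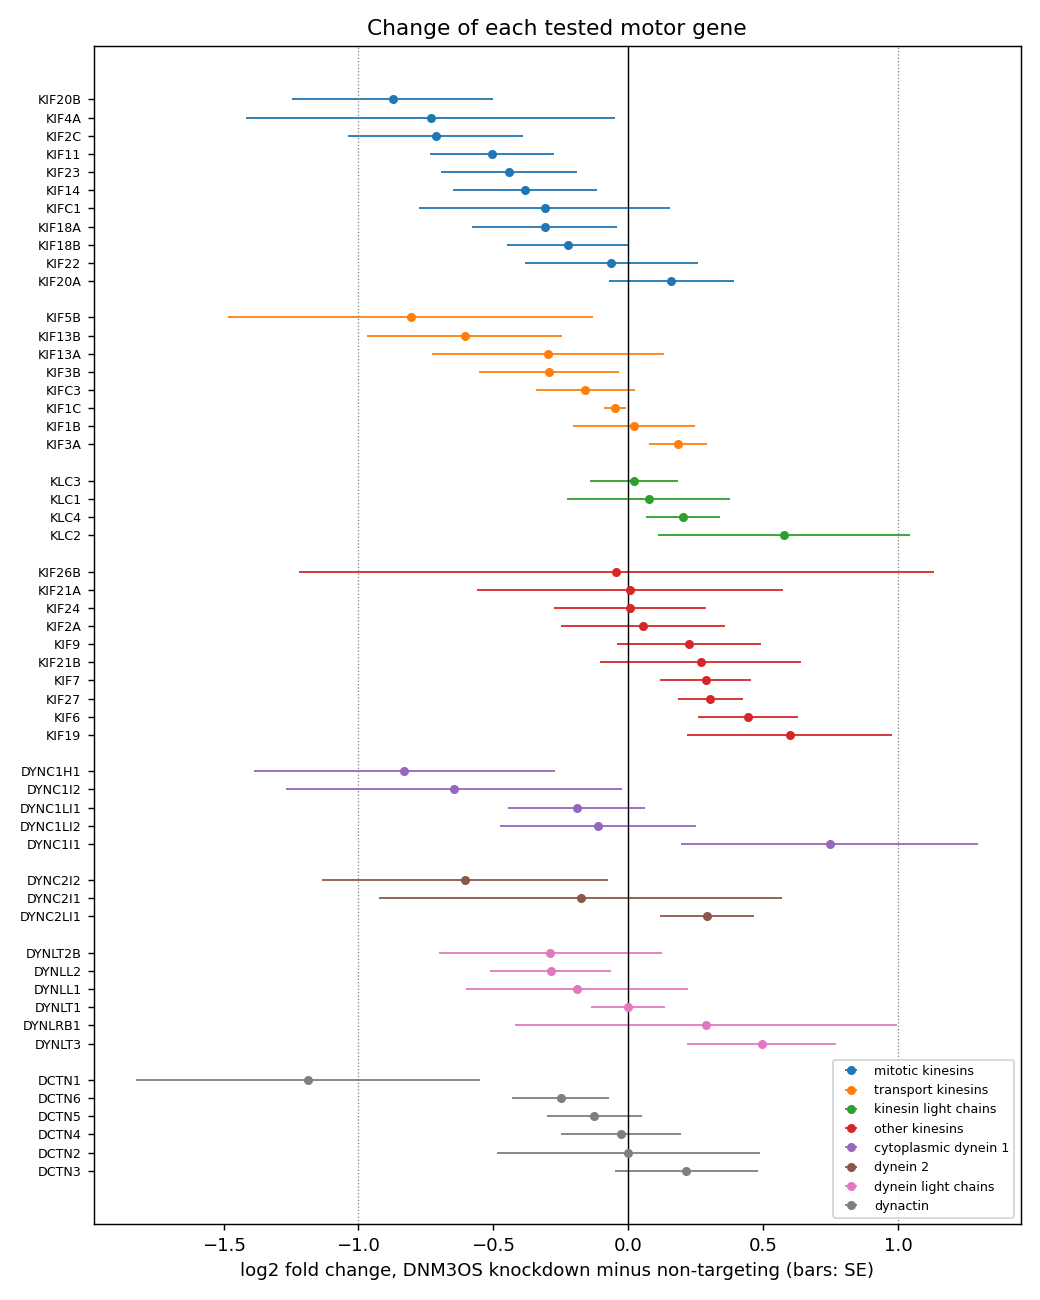
Log2 fold change of the 53 tested motor genes (DNM3OS knockdown minus NT, n = 3 each) by role, with bars for the standard error and dotted lines at a 2-fold change. Of the 11 mitotic kinesins 10 lie left of 0, and of the 10 other kinesins 9 lie right of it.

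Among the mitotic kinesins, 10 of 11 tested members had lower values in the knockdown, with a median log2 fold change of -0.38 and a range of -0.87 to 0.16. None passed the test and in each member the groups overlapped by CPM. KIF2A was counted among the other kinesins, while KIF2B and KIF2C were counted as mitotic. The log2 fold change of KIF2A was 0.05 ± 0.30 (SE), and the counts by role depend on this assignment. KIF23 was measured at 25.1, 37.1 and 42.1 CPM in knockdown replicates 1 to 3 and at 50.1, 38.6 and 51.2 CPM in NT replicates 1 to 3. Only knockdown replicate 3 reached above the lowest control. Its log2 fold change was -0.44 ± 0.25 (SE, exact permutation p = 0.2, two-sided, where 0.1 is the smallest p that 3 against 3 samples allow). KIF23 lies at chr15:69414246-69448427 (GRCh38) on the plus strand.

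KIF11, the tetrameric motor that pushes spindle poles apart, was at 16.3, 16.2 and 21.8 CPM in the knockdown and 29.6, 19.0 and 27.6 CPM in the controls. Here too knockdown replicate 3 was above NT replicate 2 and below the other controls, and the log2 fold change was -0.51 ± 0.23 (exact permutation p = 0.2). KIF20B, a motor of late cytokinesis, was at 5.58, 6.75 and 11.9 CPM against 17.1, 9.82 and 16.5 CPM. It had the lowest fold change of the group at -0.87 ± 0.37 (exact permutation p = 0.2). Its values in the knockdown rest on 12, 10 and 17 counts.

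KIF4A, a chromosome-bound motor that also shapes the midzone, was at 2.79, 8.10 and 9.12 CPM in the knockdown and 14.2, 3.93 and 14.1 CPM in the controls. NT replicate 2 sat below knockdown replicates 2 and 3, and the fold change of -0.73 was close to its standard error of 0.68. KIF2C, which depolymerises microtubules at kinetochores, was at 6.05, 9.46 and 7.72 CPM against 18.2, 9.82 and 9.41 CPM, so that NT replicate 1 alone was clearly above the knockdown. The log2 fold change of KIF2C was -0.71. The smaller differences were those of KIF14 (-0.38 ± 0.27), KIFC1 (-0.31 ± 0.47), KIF18A (-0.31 ± 0.27), KIF18B (-0.22 ± 0.23) and KIF22 (-0.06 ± 0.32) on the log2 scale. In the transcript with most counts, 63.6% of the bases of KIFC1 and 35.1% of those of KIF22 are also exonic on the opposite strand. The highest such share in the other tested mitotic kinesins was 4.79%, in KIF2C.

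KIF20A, which acts with KIF23 in cytokinesis, was the member with a positive value. It was at 13.5, 23.6 and 21.1 CPM in the knockdown and 16.5, 17.0 and 17.6 CPM in the controls. Knockdown replicate 1 was below the 3 controls and the other 2 knockdown libraries were above them, and the log2 fold change was 0.16 ± 0.23.

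**Figure D3:**
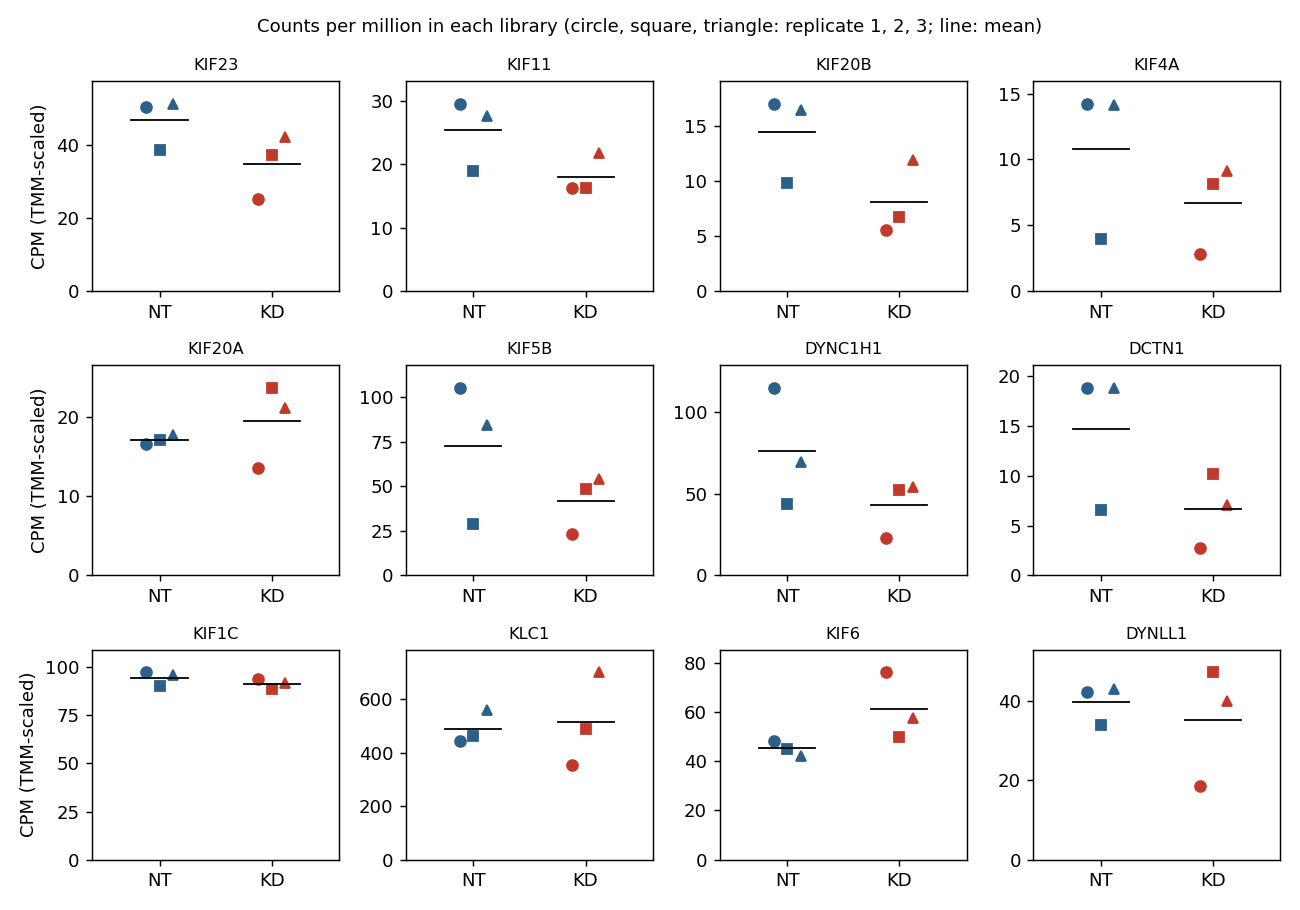
CPM (scaled by TMM, linear axes from 0) of 12 motor genes in each NT and DNM3OS knockdown (KD) library, with a symbol for each replicate number and a line at the mean of 3. In KIF23, KIF11, KIF20B, KIF4A, KIF5B, DYNC1H1 and DCTN1 the circle is the lowest or nearly the lowest knockdown value and the square the lowest control value, while the KIF6 groups do not overlap.

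A promoter sequence was at hand for all 14 mitotic kinesins and for 31 of the 40 transport motors (58 of 71 members in all, RefSeq, GRCh38.p14, from 250 bases before to 50 bases after the annotated start). These windows were searched on both strands for TTTGAA, the letters of the cell cycle genes homology region (CHR), and for CCAAT, the box bound by NF-Y. Both elements are known from promoters of genes expressed in G2 and mitosis. The 150 bases before the RefSeq start are shown for 4 mitotic kinesins that hold both sets of letters. They are also shown for KIF20A, which holds the CCAAT letters alone, and for KIF5B, the transport motor with both. RefSeq starts can differ from those of the GENCODE genes whose coordinates and counts are given here. The excerpts of KIF11 and KIF20A lie within the GENCODE gene, and so does part of that of KIF23. Capitals mark the matches, with TTTGAA read as TTCAAA and CCAAT as ATTGG where the match is on the other strand.
KIF23: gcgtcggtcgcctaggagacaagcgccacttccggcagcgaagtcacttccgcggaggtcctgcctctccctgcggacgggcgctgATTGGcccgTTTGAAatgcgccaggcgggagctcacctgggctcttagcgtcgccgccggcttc
KIF11: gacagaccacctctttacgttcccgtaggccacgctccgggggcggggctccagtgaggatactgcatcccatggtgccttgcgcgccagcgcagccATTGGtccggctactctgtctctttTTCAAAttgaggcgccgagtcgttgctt
KIF18A: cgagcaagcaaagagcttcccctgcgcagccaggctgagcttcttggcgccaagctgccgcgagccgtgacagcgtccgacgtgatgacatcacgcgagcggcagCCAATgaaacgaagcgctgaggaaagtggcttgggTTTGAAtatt
KIF4A: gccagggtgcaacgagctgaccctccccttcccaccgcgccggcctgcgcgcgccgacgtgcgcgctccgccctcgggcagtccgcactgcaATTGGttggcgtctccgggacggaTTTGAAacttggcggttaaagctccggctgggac
KIF20A: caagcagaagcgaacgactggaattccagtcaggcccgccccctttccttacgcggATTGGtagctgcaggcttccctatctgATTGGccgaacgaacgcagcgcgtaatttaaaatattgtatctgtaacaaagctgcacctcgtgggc
KIF5B: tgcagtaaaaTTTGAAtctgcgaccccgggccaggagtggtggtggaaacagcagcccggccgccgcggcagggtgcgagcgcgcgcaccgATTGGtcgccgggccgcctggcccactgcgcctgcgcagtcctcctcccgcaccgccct

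The excerpts lie at chr15:69414199-69414348 (plus strand) for KIF23, chr10:92592980-92593129 (plus) for KIF11, chr11:28108157-28108306 (minus) for KIF18A, chrX:70289954-70290103 (plus) for KIF4A, chr5:138178962-138179111 (plus) for KIF20A and chr10:32056426-32056575 (minus) for KIF5B. The CHR letters were found in 10 of 14 mitotic windows (71.4%), in 1 of 31 transport windows (3.23%) and in 11.95% of the 15068 windows of protein-coding genes. CCAAT was found in 11 of 14 (78.6%), 9 of 31 (29.0%) and 36.6%. Both occurred together in 9 of 14 mitotic windows (64.3%), in KIF5B alone among the transport windows and in 4.997% of protein-coding windows. The windows of KIF4A and KIF4B are nearly alike around their CHR matches, so they are not independent of each other. KIF4B held 1 count over all 6 libraries. In the mitotic kinesins the CHR letters started between 55 bases before and 30 bases after the start, and in KIF5B they started 140 bases before it. KIF2C and KIF2B held neither, nor did KIF2A, which was counted among the other kinesins. A match of letters is a description and not a bound site, and only these exact letters were searched, so variants of either element were not counted. A relation between matches and fold changes was not tested.

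**Figure D4:**
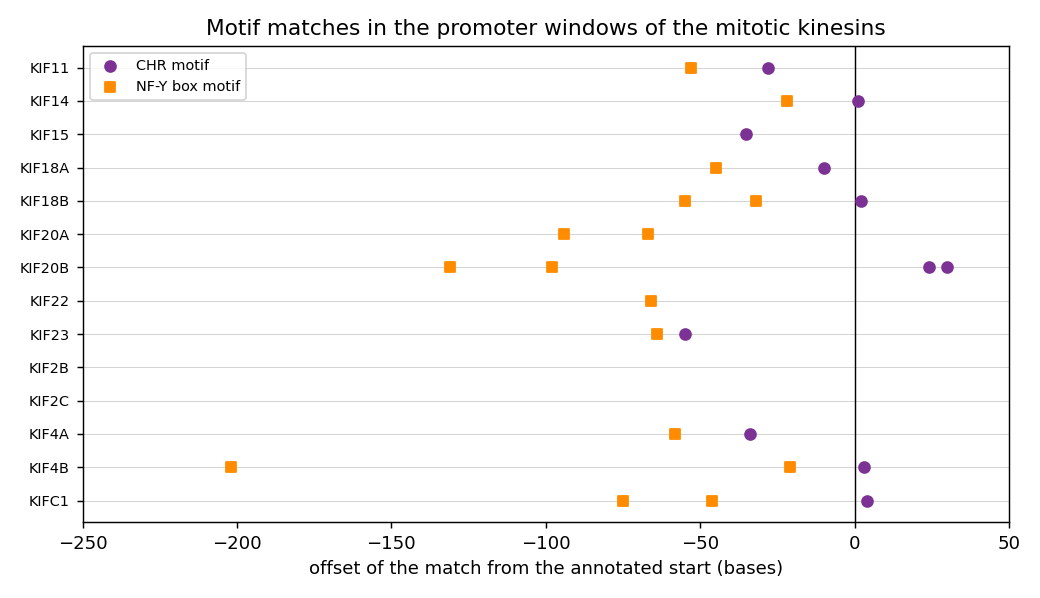
Position of the CHR letters (circles) and of the NF-Y box letters (squares) in the promoter windows of the 14 mitotic kinesins, as bases from the annotated start (vertical line). The CHR matches lie close to the start, with a median offset of 1 base, and 14 of the 16 NF-Y box matches lie within the 100 bases before it.

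The transport motors were nearer to the centre of all genes. Of 29 tested members 18 had lower values and 11 had higher values in the knockdown, the median log2 fold change was -0.11 and the range -1.19 to 0.75. Among the cytoplasmic dynein 1 chains, 4 of 5 were lower with a median of -0.19. DYNC1H1, the heavy chain that carries the motor domain (chr14:101964573-102056443, plus strand), was at 22.8, 52.7 and 54.0 CPM in the knockdown and 115, 43.9 and 69.4 CPM in the controls. In TPM, DYNC1H1 was at 10.9 ± 2.68 in the knockdown and 11.5 ± 6.41 in the controls (SD, n = 3 each). By CPM, NT replicate 2 was below knockdown replicates 2 and 3. The log2 fold change of -0.83 ± 0.56 had an unadjusted p of 0.0434 in edgeR's exact test, an adjusted p of 1 and an exact permutation p of 0.3. The cargo-binding intermediate chain DYNC1I2 likewise had its highest values in NT replicates 1 and 3, at 7.91, 23.6 and 18.9 CPM against 35.3, 12.4 and 30 CPM (-0.65 ± 0.62). The light intermediate chain DYNC1LI1 had a log2 fold change within its standard error (-0.19 ± 0.25).

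The dynactin subunits were split, with 4 of 6 lower and a median of -0.076. DCTN1, the p150 subunit that holds on to the microtubule (chr2:74361154-74392087, minus strand), was at 2.79, 10.1 and 7.02 CPM in the knockdown and 18.8, 6.55 and 18.8 CPM in the controls. By CPM, NT replicates 1 and 3 were above the knockdown and NT replicate 2 was within it. In TPM, NT replicate 2 was instead the highest library, at 13.7. The TPM means were 5.77 ± 4.02 in the knockdown and 9.30 ± 3.84 in the controls (SD, n = 3 each). The log2 fold change was -1.19 ± 0.64, with an unadjusted p of 0.0408 in edgeR's exact test, an adjusted p of 1 and an exact permutation p of 0.3, and it rests on 106 counts over 6 libraries. The antisense RNA DCTN1-AS1 shares 562 exonic bases with DCTN1, or 5.38% of its exonic bases, and 0 of the 4024 bases of its leading transcript. On the log2 scale DCTN2 and DCTN6, subunits of the shoulder and of the pointed end of dynactin, differed by 0.00089 ± 0.49 and -0.25 ± 0.18.

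KIF5B, the heavy chain of conventional kinesin in most tissues (chr10:32009015-32056425, minus strand), was at 23.3, 48.6 and 54.0 CPM in the knockdown and 105, 28.8 and 84.7 CPM in the controls. As in DYNC1H1, NT replicates 1 and 3 were highest and NT replicate 2 was within the range of the knockdown. The log2 fold change was -0.81 ± 0.68 (exact permutation p = 0.4). KIF1C, a fast carrier of dense-core vesicles, had little spread in either group, at 94.0, 88.5 and 91.9 CPM against 97.4, 90.3 and 95.9 CPM, a log2 fold change of -0.05 ± 0.04. KIFC3 was at 69.3, 60.1 and 57.5 CPM against 68.9, 84.5 and 56.5 CPM (-0.16 ± 0.18). The 8 transport kinesins tested had a median of -0.23, with 6 lower and 2 higher.

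The kinesin light chains, which tie kinesin heavy chains to cargo, had positive values in 4 of 4 members, with a median of 0.14. KLC1 was at 355, 488 and 702 CPM in the knockdown and 443, 461 and 560 CPM in the controls, so the knockdown values lay on both sides of the controls (0.08 ± 0.30). The transcript with 95.2% of its counts is 15091 bases long, and 36.8% of those bases are also exonic on the opposite strand. XRCC3 shares 5756 exonic bases with KLC1. KLC4 was at 37.7, 51.3 and 42.1 CPM against 38.2, 39.9 and 35.3 CPM (0.20 ± 0.14). The dynein light chains were divided, with 4 of 6 lower and a median of -0.096. DYNLL1, a dimer shared by dynein and myosin V, was at 18.6, 47.3 and 40.0 CPM against 42.2, 34.0 and 42.9 CPM, and knockdown replicate 1 alone was below the controls (-0.19 ± 0.41). DYNLT1, of the Tctex family of light chains, had a log2 fold change of -0.0020 ± 0.14. In dynein 2, the motor of return transport in cilia, the intermediate chain DYNC2I2 had a log2 fold change of -0.61 ± 0.53 and the light intermediate chain DYNC2LI1 one of 0.29 ± 0.17.

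The other kinesins, most of them known from cilia, Hedgehog signalling or microtubule length control, had positive log2 fold changes in 9 of 10 members, with a median of 0.25. KIF6 (chr6:39329990-39725408, minus strand), a kinesin of motile cilia, was at 76.3, 50.0 and 57.5 CPM in the knockdown and 48.4, 45.2 and 42.4 CPM in the controls. By CPM each knockdown value was above each control, and the log2 fold change was 0.44 ± 0.18 (exact permutation p = 0.1, the smallest possible; adjusted p = 1 in edgeR's exact test). The gap was narrow, since knockdown replicate 2 and NT replicate 1 differed by 50.0 against 48.4 CPM. In TPM the KIF6 groups overlapped, at 41.2, 13.8 and 16.3 in the knockdown and 21.9, 19.7 and 19.4 in the controls. On that scale knockdown replicates 2 and 3 were below each control. KIF7, which sits at the tip of primary cilia, and its relative KIF27 had log2 fold changes of 0.29 ± 0.17 and 0.30 ± 0.12. KIF26B was at 24.2, 16.2 and 0.702 CPM against 11.4, 15.7 and 15.9 CPM, so that knockdown replicate 3 held 1 count while the others of its group held the 2 highest values of the 6.

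The mitotic median was lower than the transport median by 0.27 on the log2 scale, while the difference between the 2 lists varied by 0.21 between replicates (pooled SD). In each library this difference, taken as the median log2 CPM relative to each gene's mean over 6 libraries, was -0.26, -0.11 and 0.12 in knockdown replicates 1 to 3 and 0.38, -0.04 and 0.31 in NT replicates 1 to 3. NT replicate 2 lay within the knockdown range. The mitotic list alone gave -0.57, 0.08 and 0.04 in the knockdown and 0.46, -0.09 and 0.36 in the controls, a pooled SD of 0.33. The transport list gave -0.31, 0.19 and -0.08 against 0.08, -0.06 and 0.04. Whether the number of dividing cells or the mitotic RNA per cell differed was not tested, and bulk libraries cannot tell these apart. In a separate assay the study reported similar proliferation of the knockdown and control cells.

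The mitotic median was lowest in knockdown replicate 1, then in NT replicate 2, in the other 2 knockdown libraries and in NT replicates 3 and 1. Knockdown replicate 1 held the lowest value of the 6 libraries in 9 of 11 mitotic kinesins, against 3524 of 11814 genes. NT replicates 1 and 3 held the 2 highest values in 6 of 11 (54.5%), against 6 of 29 transport motors (20.7%) and 13.0% of all genes. Those 3 libraries are also the lowest and the 2 highest in ribosomal protein share. With that share as a covariate (edgeR's quasi-likelihood fit, added after the data were seen), the mitotic median was 0.012, the transport median 0.051 and their difference -0.04. The share itself was highest in 2 of the 3 controls, so it is not independent of the group.

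**Figure D5:**
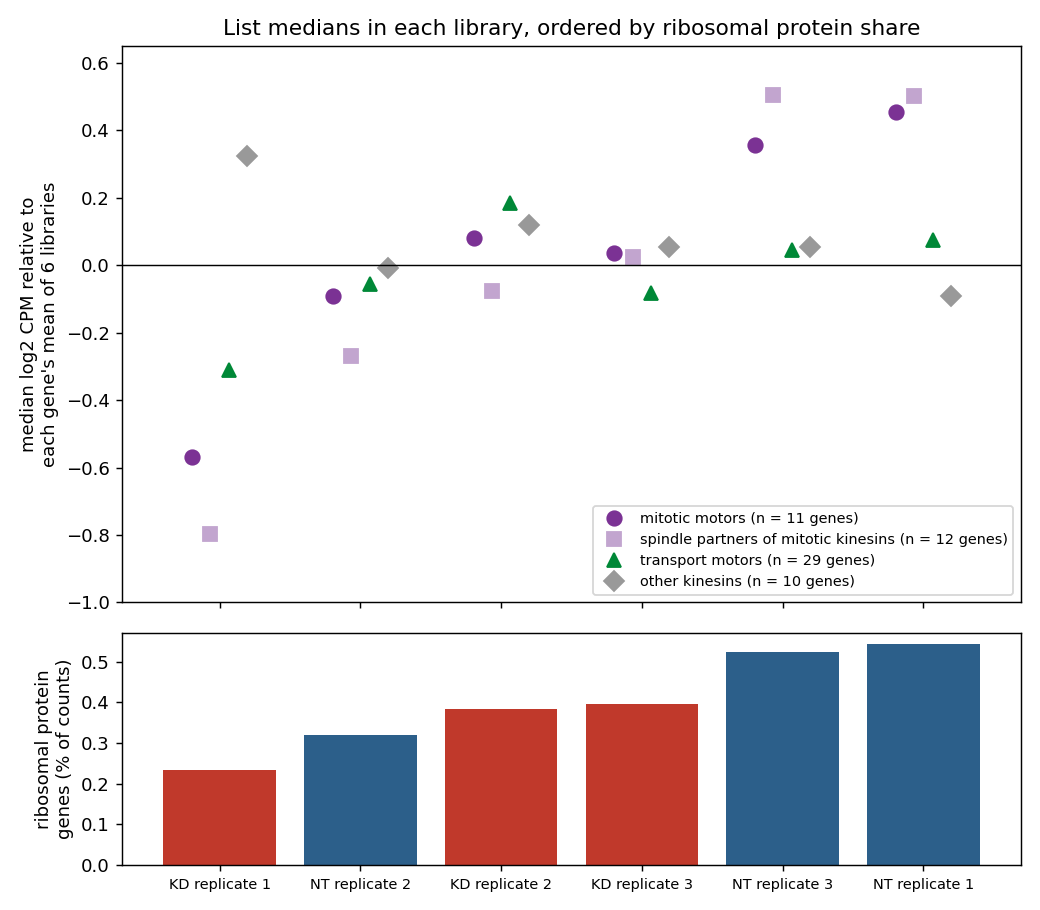
Upper panel, median log2 CPM of 4 gene lists in each library relative to each gene's mean over the 6 libraries, and lower panel, the percentage of counts on ribosomal protein genes, with libraries ordered by that share (red, DNM3OS knockdown (KD), and blue, NT). The medians of the mitotic motors and of their spindle partners are lowest in knockdown replicate 1 and highest in NT replicates 1 and 3, while the transport motors vary less.

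Without the 2 libraries that stood apart, 9 of 11 mitotic kinesins and 14 of 29 transport motors were lower, with medians of -0.34 and 0.0012 and a difference of -0.34. In this comparison of 2 against 2 libraries the groups did not overlap in 6 mitotic kinesins that were lower (KIF11, KIF14, KIF18A, KIF20B, KIF23 and KIF4A) and 1 that was higher (KIF20A). Over all 53 members 15 were lower and 8 higher without overlap, against 19.9% and 20.6% of all genes. KIF5B had a log2 fold change of -0.87 and an adjusted p of 0.00942 in edgeR's exact test, under the 2-fold limit, and 0 members passed both limits, against 0.259% of all genes lower and 0.0668% higher. DYNC1H1 and DCTN1 were at -0.77 and -1.10, with adjusted p of 0.135 and 0.223 in that test, and DYNC1I2 was at -0.59. Among the mitotic kinesins, log2 fold changes without these 2 libraries were -0.34 for KIF23, -0.58 for KIF11, -0.83 for KIF20B, -0.70 for KIF4A, -0.66 for KIF2C and 0.41 for KIF20A. KIF6 was at 0.26 and DYNC2I2 at -0.16, and the median of the dynein light chains was 0.058. Leaving out NT replicate 2 alone gave 12 members lower and 5 higher without overlap, against 15.0% and 12.8% of all genes, and 0 members past both limits, against 0.00797% and 0.0%, while leaving out knockdown replicate 1 alone gave 3 lower and 6 higher, against 7.59% and 10.5%, and again 0 past both limits, against 0.00825% in each direction.

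Genes that work with the motors were read from 4 lists. The 12 spindle partners of the mitotic kinesins all had negative log2 fold changes, with a median of -0.55, and 0 were called in either direction. CENPE, the kinetochore kinesin whose symbol falls outside the KIF names, had 4, 15 and 19 counts in the knockdown and 51, 10 and 49 in the controls (-1.38, unadjusted p = 0.0471 and adjusted p = 1 in edgeR's exact test). BIRC5, a subunit of the chromosomal passenger complex, and HMMR, a spindle pole protein, were lower without overlap (-0.56 and -0.87), 2 of 12 genes against 3.56% of all genes. The list median was -0.80, -0.08 and 0.02 in the knockdown libraries and 0.50, -0.27 and 0.50 in the controls. It was -0.00065 with the ribosomal protein share as a covariate. Without the 2 libraries that stood apart, 8 of the 12 were lower without overlap, against 19.9% of all genes, and CENPE passed both limits (-1.28, adjusted p = 0.0244 in edgeR's exact test), as did 0.259% of all genes in that direction.

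Of 16 dynein regulators and adaptors, 12 were tested, 9 were lower and 3 higher, and 0 were called, with a median of -0.17. NIN, the centrosomal dynein adaptor ninein, was lower without overlap at 17, 23 and 13 counts against 54, 29 and 35 (-1.13, unadjusted p = 0.00342 and adjusted p = 1 in edgeR's exact test), and BICDL1 was higher without overlap (0.38). Without the 2 libraries that stood apart the list median was -0.16, and NIN was at -1.03 with an adjusted p of 0.254 in edgeR's exact test. Of 13 kinesin adaptors and partners, 9 were tested, 6 were lower and 3 higher, and 0 were called, with a median of -0.20. SPAG9, a scaffold that binds kinesin light chains, was lower without overlap (-0.31). The list median was -0.24 without the 2 libraries. The dynactin filament subunits tested, 4 of 6, had a median of 0.11 with 1 lower and 3 higher, and 0 were called. Without the 2 libraries their median was 0.065.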

How the data were processed

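RNA-seq was available for 3 DNM3OS knockdown and 3 non-targeting samples, grouped by their titles. Per transcript of an Ensembl GRCh38 set, the authors deposited kallisto 0.43.0 output from paired reads, of which the unnormalized estimated counts and the TPM were used. The strand setting is not given in the sources used here. Of 173259 transcripts, 155518 matched GENCODE release 44. Estimated counts and TPM were summed per gene, and counts rounded. Genes were filtered by filterByExpr (minimum count 10), normalized by TMM and compared by edgeR's exact test (edgeR 4.0.16, R 4.3.3), with Benjamini-Hochberg adjustment over 11814 genes. The study names edgeR's exact test too, but neither this filter nor TMM. Calls required an adjusted p below 0.05 and a 2-fold or larger change. At that threshold the study reported pathway enrichment among its lower genes, including regulation of the cytoskeleton, while 1 gene was called lower here. Standard errors come from log2 CPM (prior count 2). Exact permutation tests over 6 samples are two-sided, with a smallest p of 0.1. Count floors cover counting error only. Scripts were tested on simulated data. Members and lists were chosen with earlier results of these data known. The rule for named genes took the 2 members of each role with the highest TPM, those without overlap between groups, those with an unadjusted p below 0.05 and any past the threshold. DESeq2 1.42.0, edgeR's quasi-likelihood test (also with replicate number as a block), other scalings and filters, counts rebuilt from TPM and length, restriction to protein-coding genes, removal of 4 very abundant genes and removal of each library were tried as alternatives. The ribosomal protein covariate, the fit without the 2 libraries that stood apart and the alternatives for the 4 pathway lists were added after the data were seen. Some results for single genes are not reported here.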

Additional observations from a re-analysis of the deposited data

How the results depend on the processing

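Depth limits the lower members: 30 of the 53 tested motor genes held at least 30 counts per library on average, and the others fewer. Each alternative called 0 members past the threshold. Over all genes, the count of lower calls (1) became 0 in both quasi-likelihood fits, with DESeq2 and with the ribosomal protein covariate, 2 without a filter and with at least 1 CPM in 3 samples, 3 with length-scaled TPM counts, 31 without both libraries that stood apart and 0 to 3 when a library was left out. The count of higher calls (0) became 1 with library totals only, 8 without both libraries and 0 to 1 when a library was left out. Members lower without overlap (0) became 2 with library totals only, 1 without a filter, with at least 1 CPM and with length-scaled TPM counts, 15 without both libraries and 0 to 12 when a library was left out. Members higher without overlap (1) became 0 with library totals only, 3 with length-scaled TPM counts, 8 without both libraries and 1 to 6 when a library was left out. Among all genes, 19.9% were lower and 20.6% higher without overlap in the fit without both libraries. These shares were 15.0% and 12.8% without NT replicate 2, and 7.59% and 10.5% without knockdown replicate 1. The shares under the other alternatives are not given here, so those counts are not read as a result about the members.

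The mitotic median kept its sign in every alternative but the ribosomal protein covariate (0.012; -0.53 to -0.23 when a library was left out), where the difference from the transport median was -0.039 (-0.40 to -0.19 when a library was left out). The dynactin filament median was -0.045 without a filter, -0.058 with at least 1 CPM and 0.33 with the covariate. The dynein regulators were at 0.10 with length-scaled TPM counts and 0.18 with the covariate, the kinesin adaptors at 0.30 with the covariate, and the spindle partners at -0.39 with length-scaled TPM counts, -0.00065 with the covariate and -0.82 to -0.27 when a library was left out. The cause of these shifts was not tested.

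Of the members, 28 were followed singly under each alternative, with 0 called, and among these the following signs turned. With the covariate, values were 0.33 for DYNC1I2, 0.22 for DYNLL1, 0.012 for KIF14, 0.056 for KIF18A, 0.32 for KIF22, 0.53 for KIF4A, 0.24 for KIFC1 and 0.27 for KIF5B. Without both libraries they were 0.11 for DYNC1LI1, 0.0012 for DCTN6, 0.058 for DYNLL1 and 0.10 for KIF22. DCTN2 was at -0.0087 in the quasi-likelihood fit, -0.068 with the replicate block, -0.0030 with RLE, -0.023 with library totals and -0.0057 with at least 1 CPM. DYNLT1 was at 0.028 with library totals, 9.9e-05 without a filter, 0.12 with length-scaled TPM counts, 0.018 with protein-coding genes only and 0.0029 without the 4 abundant genes, and KIF22 at 0.027 with length-scaled TPM counts. When a library was left out, log2 fold changes ranged from -0.39 to 0.046 for DYNC1LI1, -0.43 to 0.36 for DCTN2, -0.47 to 0.15 for DYNLL1, -0.092 to 0.11 for DYNLT1, -0.21 to 0.30 for KLC1, -0.011 to 0.40 for KIF20A, -0.34 to 0.20 for KIF22, -0.78 to 0.11 for KIFC1 and -0.30 to 0.0047 for KIFC3.

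Both groups use replicate numbers 1 to 3, and no label says that a number marks a shared culture or day. Deviations of same-numbered samples from their group means correlated at -0.40, -0.34 and 0.23 over genes, so the numbers were not taken as pairs, and each of the 3 knockdown samples correlated best with a control of another number. With the replicate number as a block, 0 genes and 0 members were called, the mitotic median was -0.38, the transport median -0.14 and their difference -0.24.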
